A study of Caenorhabditis elegans with 8 samples.

Results

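The response of wild-type *Caenorhabditis elegans* to oma-1 RNAi was read from 4 of the 8 small RNA libraries of the series. They are 2 libraries of animals fed bacteria that express oma-1 double-stranded RNA (dsRNA) and 2 libraries of animals fed bacteria with L4440, the empty feeding vector. Strain and food in the labels chose these libraries, and no measured value did. All 4 came from whole animals of N2, the standard laboratory wild type, raised at 20 °C on HT115, an *Escherichia coli* strain that lacks the enzyme that would degrade dsRNA. The age label gives gravid adults of day 1, while the extraction text speaks of young adults. The other 4 libraries came from the strain YY1683 on the same 2 foods, a zsp-1(-) mutant by the series title whose genotype label reads zap-1(-). They enter here through the shared estimate of spread and through the test of a difference between genotypes. RNA of about 18 to 35 nucleotides was cut from a gel and cloned by a method that needs no 5′ monophosphate, so it captures small RNAs with a triphosphate end. The values are reads per gene.

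Dietary dsRNA enters worm cells through the channel SID-1, is cut by Dicer with its partner RDE-4 and is loaded on the Argonaute RDE-1. RNA-dependent RNA polymerases then copy the targeted messenger RNA into many secondary small interfering RNAs (siRNAs), which are short antisense RNAs that mostly begin with G. The germline makes similar siRNAs against many of its own genes, and these endogenous siRNAs draw on several of the same polymerases, mutator proteins and Argonautes. The target, oma-1, encodes a zinc-finger RNA-binding protein of maturing oocytes and is widely used to follow RNAi across generations.

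The oma-1 RNAi libraries held 277543 and 269876 gene reads, against 177175 and 187547 in the L4440 libraries. One read was therefore worth 3.60 and 3.71 CPM on oma-1 RNAi, against 5.64 and 5.33 CPM on L4440, where CPM is a gene's reads scaled to a common library total. Levels below are CPM after adjusting that total by edgeR's trimmed mean of M-values, and fold changes are oma-1 RNAi over L4440. L4440 replicate 1 stood apart from the other wild-type libraries at a set of genes, which were singled out after their values were seen. At pals-26, of the pals family, it held 5005 reads, or 2.82% of the library, against 391 reads in L4440 replicate 2 and 1075 and 753 reads on oma-1 RNAi. T22B3.3 likewise had 58 and 23 reads on oma-1 RNAi, against 186 in L4440 replicate 1 and 12 in L4440 replicate 2. Values without it are given beside the named genes and lists that it moved most.

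Small RNA reads at oma-1 were about 113 times as abundant on oma-1 RNAi. The gene (chromosome IV, 8888976 to 8890999, plus strand, 1801 exonic bases, WBcel235) held 5076 and 5789 reads in oma-1 RNAi libraries, against 29 and 35 reads in L4440 libraries. These were 18074 and 22936 CPM on oma-1 RNAi, a mean of 20505 ± 3438, against 166 and 195 CPM on L4440, a mean of 180.6 ± 20.4 (SD, n = 2 each). Both oma-1 RNAi libraries were far above both L4440 libraries, and the groups did not overlap. On the log2 scale the rise was 6.82 with an SE of 0.47, at an adjusted p of 3.80e-10 (edgeR's quasi-likelihood test, Benjamini-Hochberg adjustment).

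The target became the gene with most reads in both oma-1 RNAi libraries. It took 1.83% (95% exact binomial interval 1.78% to 1.88%) and 2.15% (2.09% to 2.20%) of their reads, against 0.0164% (0.0110% to 0.0235%) and 0.0187% (0.0130% to 0.0260%) on L4440. These intervals cover counting error only, since amplified reads are not independent molecules. On L4440 the gene ranked 1269 and 999 by reads. In oma-1 RNAi libraries it held 1.71 and 1.58 times the reads of the next gene, Y71A12B.10. Per length its lead was smaller in rank: at 10155 and 11910 reads per kilobase of exon, scaled to the unadjusted library total, on oma-1 RNAi it was the gene of rank 4 and 5, against 90.9 and 103.6 on L4440, at rank 1518 and 1166. Which stretch of oma-1 the dsRNA covers was not stated in the labels. Reads of the dsRNA itself and of siRNAs copied from the messenger RNA cannot be told apart in counts per gene, nor can more cells with siRNAs and more siRNA per cell.

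The same rise was measured in the mutant, with 2541 and 3402 reads on oma-1 RNAi against 42 and 20 on L4440 and a log2 fold change of 6.85 (SE 0.47). The response of oma-1 in wild type minus that in the mutant was -0.03 (SE 0.55), with a 95% interval of -1.16 to 1.10 and an unadjusted p of 0.958. At this precision a difference of up to about 2-fold either way was not detectable.

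The other called gene was moe-3, another CCCH zinc-finger gene of the oma family (chromosome II, 13160545 to 13165733). It had 74 and 121 reads on oma-1 RNAi, against 1 and 1 on L4440, which is 263 and 479 CPM against 5.73 and 5.57 CPM. Every oma-1 RNAi library was above every L4440 library, and the gene moved to rank 677 and 356 by reads, against rank 7323 and 7081 on L4440. The ratio of pooled shares was 65.0, with an exact 95% counting interval of 17.7 to 540, and the fitted log2 fold change was 5.89 with an SE of 0.64, at an adjusted p of 5.49e-06 by edgeR's quasi-likelihood test. It passed the filter on low counts only through libraries on oma-1 RNAi. Reads at moe-3 were 1.46% and 2.09% of those at oma-1 in the same oma-1 RNAi libraries. In the mutant moe-3 had 60 and 74 reads on oma-1 RNAi and 0 and 0 on L4440. That is 53.2-fold higher on oma-1 RNAi when the L4440 pair is set to a floor of 3 reads in all. The exact 95% counting interval of the pooled ratio had a lower limit of 42.7 and no upper limit, as the L4440 arm held no reads. The fitted difference of responses, -3.43 (SE 2.0) with an unadjusted p of 0.0990, depends on that arm without reads.

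oma-2, the paralog that acts redundantly with oma-1 in oocyte maturation, was not called. It had 24 and 25 reads on oma-1 RNAi, against 13 and 16 on L4440, or 85.5 and 99.1 CPM against 74.5 and 89.2 CPM. The foods overlapped, and the log2 fold change was 0.17 (SE 0.40) with a 95% interval of -0.66 to 1.0. Of 13 CCCH genes on the list of relatives, 10 had a wild-type read and 8 were tested. Apart from moe-3, their log2 fold changes lay between -0.91 and 0.44. The lowest was pos-1, a maternal regulator of translation, with 9 and 10 reads on oma-1 RNAi against 12 and 12 on L4440. Both oma-1 RNAi libraries were lower there, with a log2 fold change of -0.91 (SE 0.54) and an unadjusted p of 0.105. mex-5, which acts in the polarity of the early embryo, had 39 and 43 reads on oma-1 RNAi, against 46 and 17 on L4440. Its foods overlapped, with a log2 fold change of -0.21 (SE 0.38) that is 0.66 without L4440 replicate 1.

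**Figure D1:**
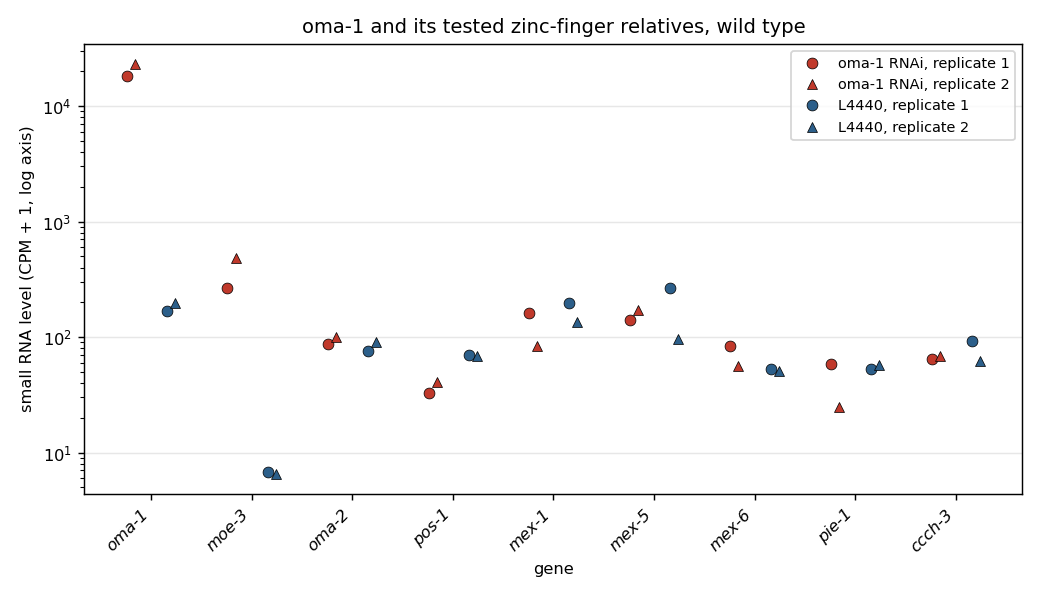
Small RNA level (CPM + 1, log axis) of oma-1 and its tested zinc-finger relatives in wild type, 1 point per library, oma-1 RNAi to the left of L4440 for each gene. oma-1 and moe-3 are separated between foods, while oma-2 lies at 85.5 and 99.1 CPM on oma-1 RNAi and at 74.5 and 89.2 CPM on L4440.

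The genes beside oma-1 gained no call. Of 12 genes within 20 kb on either side, 8 held a wild-type read, and together they held 206 reads on oma-1 RNAi and 161 on L4440, a smaller excess than that of the library totals. The nearest downstream gene, spr-2, lies on the same strand. It had 7 and 11 reads on oma-1 RNAi and 3 and 10 on L4440, and the foods overlapped. Among the other tested neighbours, rad-26 had 58 and 37 reads on oma-1 RNAi, against 35 and 34 on L4440. C27B7.5 had 20 and 15 reads on oma-1 RNAi, against 14 and 17 on L4440. Both oma-1 RNAi libraries were lower there, at 71.2 and 59.4 CPM against 80.2 and 94.8 CPM. The nuclear pore gene npp-23 had 28 and 14 reads against 17 and 18. All tested neighbours had log2 fold changes below 0: -0.11 (SE 0.71) at spr-2, -0.14 (SE 0.34) at rad-26, -0.42 (SE 0.39) at C27B7.5 and -0.34 (SE 0.39) at npp-23. The upstream neighbour C09G9.5 had 1 read over the 4 libraries. The messenger RNAs that the OMA-1 protein is known to bind or repress were not called either: 6 of 11 were tested, with log2 fold changes of -0.22 to 0.41 and a median of 0.15. The highest was glp-1, the germline Notch receptor, with 38 and 42 reads on oma-1 RNAi against 17 and 23 on L4440, and a log2 fold change of 0.41 (SE 0.36). glp-1 overlaps ZK507.1 on the opposite strand, and the labels do not say whether strand was used in counting, so its reads are uncertain.

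Across all genes, the called response to oma-1 RNAi held oma-1 and moe-3. They were 2 of 4567 tested genes (0.0438%), both higher. No gene was called lower by edgeR's quasi-likelihood test, where 135 genes (2.96%) passed an unadjusted p of 0.05, with 70 (1.53%) lower and 65 (1.42%) higher. Without L4440 replicate 2, L4440 replicate 1 alone stands for its food, so genes high in it are favoured among lower calls. Genes low in it are likewise favoured among higher calls. The number of genes called in that fit is therefore not given. With no filter on low counts the same test called 26 genes, 5 higher and 21 lower. L4440 replicate 1 exceeded L4440 replicate 2 more than 2-fold at all 21, against 363 of the 4565 tested genes other than oma-1 and moe-3. DESeq2 also called 2 genes, both higher, and had 24 genes at an unadjusted p under 0.05. The labels do not say that the libraries of a group are separate cultures, so each p-value reflects spread among these samples alone, and that spread may be technical. No gene was called for a difference of responses between wild type and mutant (0 of 4567), with 113 genes (2.47%) at an unadjusted p under 0.05 and 20 by DESeq2, which also called none.

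**Figure D2:**
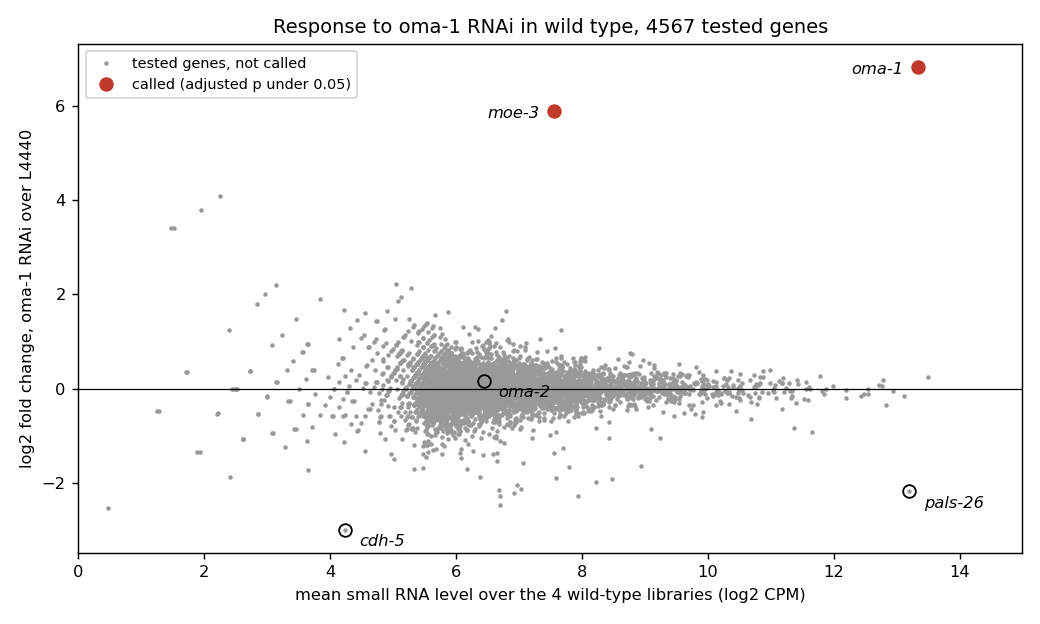
Log2 fold change of oma-1 RNAi over L4440 in wild type against the mean small RNA level (log2 CPM) of each of the 4567 tested genes, with called genes as large points. oma-1 at 6.82 and moe-3 at 5.89 stand above the band of other genes, and pals-26, at -2.18, rests on L4440 replicate 1.

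Reads at oma-1 and moe-3 took a small part of the oma-1 RNAi libraries. Genes other than oma-1 and moe-3 took 98.1% and 97.8% of reads on oma-1 RNAi, against 99.98% in each L4440 library. If the reads at these 2 genes only diluted the rest, every other gene would differ by -0.03 on the log2 scale. With plain library totals, the scaling that keeps such dilution, the median log2 fold change of the other 4565 tested genes was 0.01, with quartiles at -0.22 and 0.25. With oma-1 and moe-3 reads left out of the totals the median was 0.04. In L4440 replicate 1, pals-26 alone took 2.82% of reads, which dilutes the other genes of that library too. A shift as small as -0.03 therefore cannot be read from these medians. The scaling used for the tests centres most genes on 0, so its median of 0.01, with quartiles at -0.23 and 0.25, could not show a general loss. Since counts are relative within a library, a change of the total amount of endogenous siRNA per animal was not measured.

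The response was also compared between genes with few and with many siRNAs. In 5 groups of 913 genes ordered by mean level, the median log2 fold change was 0.00, -0.02, 0.01, 0.01 and 0.02, lowest to highest. What differed between these groups was precision. The 95% interval of the change lay within 2-fold either way for 0.876% of genes in the lowest group, 16.9%, 40.7% and 64.5% in the middle groups and 73.5% in the highest. Over all tested genes that was so for 1794 (39.3%), and the median SE was 0.40. For most genes a 2-fold change in at least 1 direction therefore lay inside the interval.

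**Figure D3:**
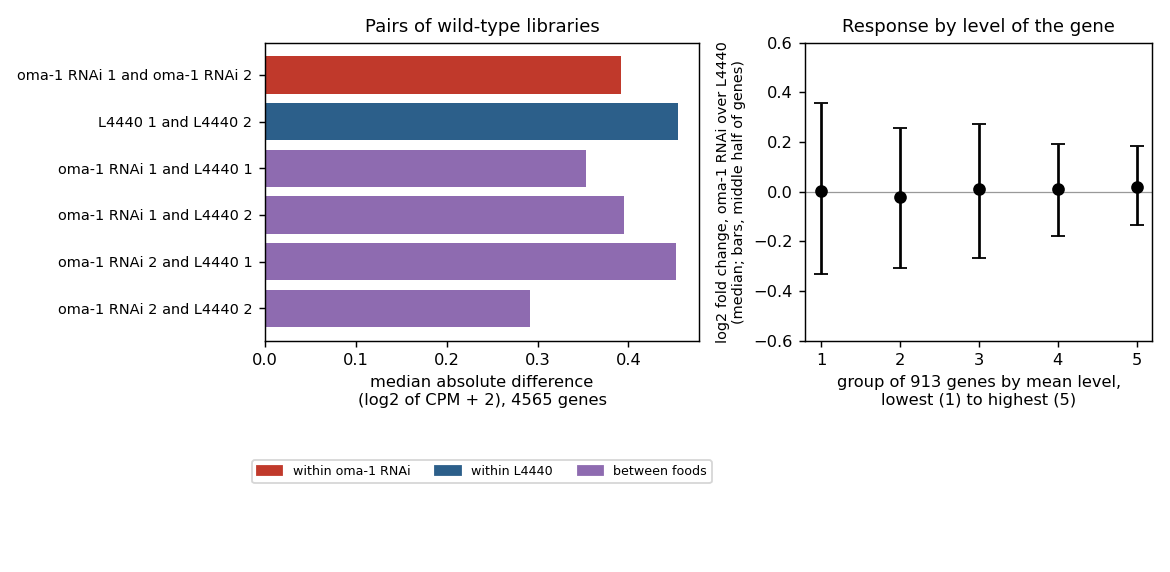
Left, median absolute difference in log2 (CPM + 2) over 4565 genes for each pair of wild-type libraries; right, median log2 fold change of oma-1 RNAi over L4440 in 5 groups of 913 genes by level, with bars between the quartiles of the genes. oma-1 RNAi replicate 2 and L4440 replicate 2 are the closest pair, at 0.29, and the group medians lie between -0.02 and 0.02.

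Libraries differed within a food by as much as between foods. The median absolute difference in log2 (CPM + 2) was 0.39 between the oma-1 RNAi libraries and 0.46 between the L4440 libraries. Between foods it was 0.35, 0.40, 0.45 and 0.29. The smallest values were those of same-numbered libraries, 0.29 for replicate 2 and 0.35 for replicate 1, and both were below the values within a food. The number of genes more than 2-fold apart was 412 within oma-1 RNAi, 744 within L4440 and 322 to 704 between foods. L4440 replicate 1 is in the pair with 744 and in the pair with 704.

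The spread of reads over genes was also similar on both foods. Thinned to 136908 reads, the oma-1 RNAi libraries held reads at 8443 and 8214 genes, against 8587 and 8214 genes in the L4440 libraries. The 20 genes with most reads took 11.68% and 13.73% on oma-1 RNAi, against 12.63% and 12.63% on L4440, and 10.32% and 12.19% on oma-1 RNAi without oma-1 and moe-3. Chromosome IV, which carries oma-1, took 18.4% and 18.3% of reads on oma-1 RNAi, against 17.3% and 16.5% on L4440. Without oma-1 and moe-3 these shares were 16.9% and 16.6% on oma-1 RNAi, against 17.2% and 16.5% on L4440, and the foods overlapped.

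None of the genes that encode the RNAi machinery was called as a target of siRNAs that differed between foods. These values are siRNA reads against the genes and not their expression. Uptake and processing of dsRNA had 11 tested genes of 18, a median log2 fold change of 0.11, and a median of -0.32 without L4440 replicate 1. The channel gene sid-1 had 244 and 316 reads on oma-1 RNAi, against 118 and 210 on L4440, or 869 and 1252 against 676 and 1170 CPM. Its foods overlapped, and the log2 fold change of 0.20 (SE 0.34) was -0.17 without L4440 replicate 1. rde-11, needed for exogenous RNAi, had 68 and 72 reads on oma-1 RNAi, against 27 and 55 on L4440, with a log2 fold change of 0.19 (SE 0.35) that was -0.25 without L4440 replicate 1. Both libraries on oma-1 RNAi were lower at rde-1, the primary Argonaute, with 17 and 14 reads against 12 and 17 on L4440 and a log2 fold change of -0.49 (SE 0.45).

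Most genes for RNA-dependent RNA polymerases and mutator proteins, which make secondary siRNAs, had fold changes above 0 without being called. Of 15 tested, 10 lay above 0, the median was 0.24 against 0.01 for all other tested genes, and it stayed between 0.19 and 0.36 under every alternative tried. At 7 of the 15, both oma-1 RNAi libraries were above both L4440 libraries, which held for 13% of all tested genes. The lowest p in the list was that of rrf-2, a polymerase gene, with 143 and 148 reads on oma-1 RNAi against 43 and 72 on L4440. Both oma-1 RNAi libraries, at 509 and 586 CPM, were above the L4440 libraries at 246 and 401 CPM. The log2 fold change was 0.76 (SE 0.32), with an unadjusted p of 0.0255 and an adjusted p of 0.999 (edgeR's quasi-likelihood test).

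The remaining polymerase genes were smaller in their differences. rrf-3, the polymerase of the ERGO-1 pathway, had 66 and 45 reads on oma-1 RNAi against 26 and 24 on L4440, without overlap and with a log2 fold change of 0.55 (SE 0.34). The value was 0.23 (SE 0.31) for rrf-1, which makes secondary siRNAs in the soma, and 0.24 (SE 0.32) for its germline relative ego-1. Among mutator and helicase genes it was 0.49 (SE 0.31) for mut-14 and 0.47 (SE 0.35) for drh-3. In the mutant the median over the list was -0.08, and the difference between genotypes was not tested for the list.

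The loci of ERGO-1 class siRNAs, an endogenous class whose primary siRNAs depend on rrf-3 and Dicer, lay mostly on the other side of 0. Of 12 tested loci 11 were below 0 and none was called. The median was -0.26, between -0.42 and -0.11 under every alternative tried. At 6 of the 12, both oma-1 RNAi libraries were below both L4440 libraries, against 12.5% of all tested genes. The whole list took 1.82% and 2.0% of reads on oma-1 RNAi, against 2.12% and 2.30% on L4440, and the foods did not overlap. Without C44B11.6, the locus with most reads, the shares were 1.03% and 1.16% on oma-1 RNAi, against 1.27% and 1.34% on L4440. In the mutant the list took 1.37% and 1.32% on oma-1 RNAi, against 1.38% and 1.46% on L4440, with a median of -0.21. With 2 libraries a side, an exact permutation test of these shares cannot give a low p, so none is given.

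Single ERGO-1 loci show the size of these differences. K02E2.6 had 675 and 817 reads on oma-1 RNAi, against 573 and 608 on L4440, or 2403 and 3237 against 3284 and 3389 CPM. Both oma-1 RNAi libraries were lower, by little in replicate 2, with a log2 fold change of -0.24 (SE 0.30). Y37E11B.2 had 621 and 645 reads on oma-1 RNAi, against 476 and 495 on L4440, with a log2 fold change of -0.20 (SE 0.30). The lowest value was -0.47 (SE 0.36), at Y43F8B.9, and the only one above 0 was 0.12 (SE 0.36), at H09G03.1. E01G4.5, at -0.30 (SE 0.30), was 0.06 without L4440 replicate 2. The 95% interval of each of the 12 included 0.

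**Figure D4:**
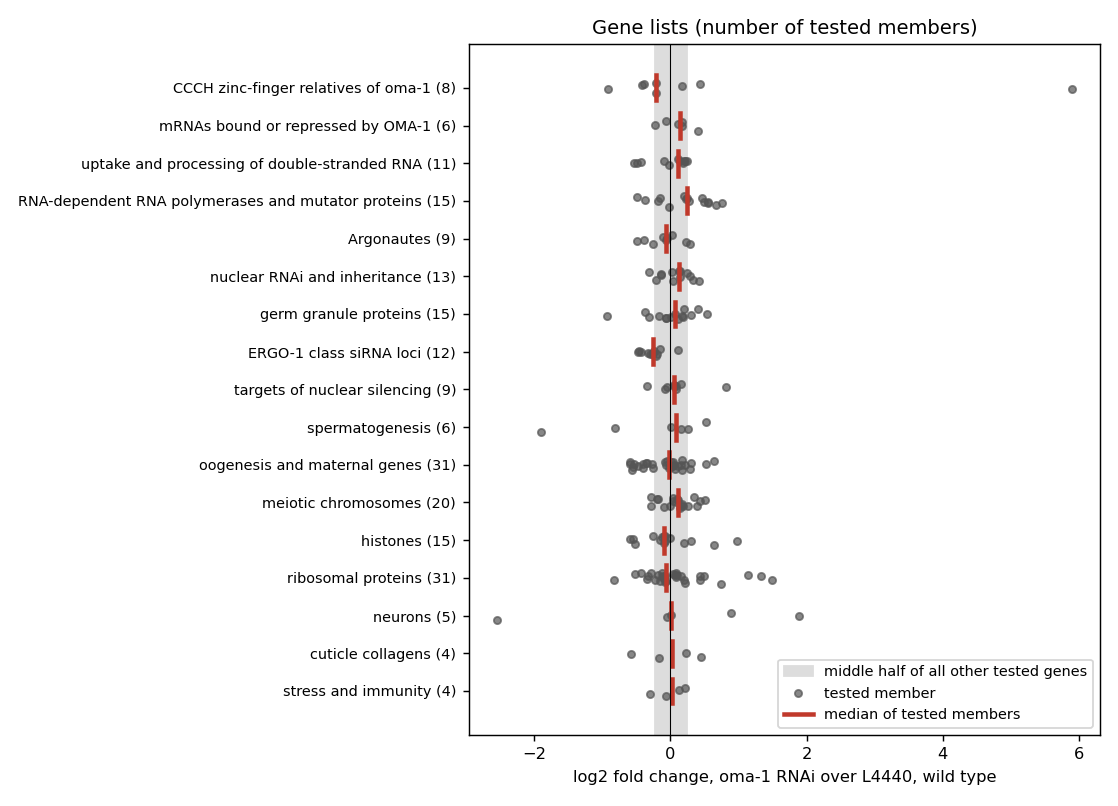
Log2 fold change of oma-1 RNAi over L4440 in wild type for the tested members of each gene list, 1 grey point per gene and a red bar at the median, with the grey band between the quartiles of all other tested genes (-0.23 to 0.25). The polymerase and mutator list has its median at 0.24 and the ERGO-1 list at -0.26, near the edges of the band.

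Argonautes, nuclear RNAi factors and the genes that nuclear RNAi silences held no called gene. The 9 tested Argonaute genes had a median of -0.07, with csr-1, the Argonaute of expressed germline genes, at -0.05 (SE 0.30) and the piRNA Argonaute gene prg-1 at 0.24 (SE 0.30). prg-1 overlaps D2030.12 on the opposite strand. The 13 tested genes of nuclear RNAi and inheritance had a median of 0.12, with hrde-1, the nuclear Argonaute of inherited silencing, at 0.03 (SE 0.29). Over the alternatives run, the Argonaute median ranged from -0.25 to 0.18 and the nuclear RNAi median from 0.01 to 0.16. The 9 tested targets of nuclear silencing had a median of 0.05 (-0.20 to 0.42 over the alternatives), from -0.34 at F15D4.5 to 0.81 at lir-1, which overlaps lin-26 on the same strand. F15D4.5 had 1676 and 1729 reads on oma-1 RNAi, against 1440 and 1425 on L4440, or 5968 and 6850 against 8253 and 7943 CPM. Both oma-1 RNAi libraries were lower there, with an SE of 0.31 beside the log2 fold change. bath-45 had 1731 and 1945 reads on oma-1 RNAi, against 862 and 1454 on L4440, its foods overlapped, and its log2 fold change of 0.09 (SE 0.33) was -0.25 without L4440 replicate 1.

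Germline and tissue lists held no called gene. The medians were 0.06 for 15 germ granule genes, -0.01 for 31 oogenesis and maternal genes, 0.11 for 20 meiotic chromosome genes and 0.09 for 6 spermatogenesis genes. They were -0.10 for 15 histone genes, -0.06 for 31 ribosomal protein genes, 0.05 for 217 X-linked genes and -0.05 for 18 pseudogenes. Both oma-1 RNAi libraries were below both L4440 libraries at 8 of the 31 oogenesis and maternal genes and above at 2. The counts below and above were 1 and 4 for meiotic chromosome genes, 3 and 1 for histones and 4 and 0 for pseudogenes. For germ granule genes they were 0 and 1, for spermatogenesis 0 and 0, for ribosomal proteins 2 and 5. For X-linked genes they were 22 and 37. Over all tested genes the shares were 12.5% below and 13% above. At an unadjusted p under 0.05 there were 9 higher and 5 lower of the 217 X-linked genes, beside 1.42% higher and 1.53% lower of all tested genes, and 4 members of the other lists just named. Over the alternatives run, the medians of these 8 lists ranged between -0.50 and 0.33. ggtb-1, a germ granule list member that overlaps B0280.17 on the opposite strand, had 45 and 26 reads on oma-1 RNAi, against 62 and 27 on L4440 (log2 fold change -0.93, SE 0.38), and its foods overlapped. ssp-16, a sperm gene, had 38 and 6 reads on oma-1 RNAi, against 97 and 10 on L4440, and its log2 fold change of -1.90 (SE 0.61) was 0.48 without L4440 replicate 1. For ggtb-1 the value was -0.23 without L4440 replicate 1 and -1.39 without L4440 replicate 2. The ribosomal protein genes rps-11 and rps-23 were at 1.49 (SE 0.70) and 1.33 (SE 0.62), with 13 and 17 reads against 3 and 4 for rps-11, and 17 and 21 against 1 and 9 for rps-23. Without L4440 replicate 1, rps-23 was at 0.47, and it passed the filter on low counts only through libraries on oma-1 RNAi.

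Muscle and intestine genes carried few siRNAs in these whole animals. The muscle list took 0.0043% and 0.0026% of reads on oma-1 RNAi, against 0.0017% and 0.0043% on L4440, and 0 of its 13 genes could be tested. The muscle myosin gene myo-3 and the yolk protein genes vit-2 and vit-5 had 0 reads in all 4 libraries. The intestine list took 0.0043% and 0.0026% on oma-1 RNAi, against 0.0045% and 0.0059% on L4440, with 1 tested gene. The neuron list had 5 tested genes and a median of 0.01, with log2 fold changes from -2.54 to 1.89. The highest was ida-1, a dense-core vesicle gene, with 4 and 8 reads on oma-1 RNAi against 0 and 2 on L4440. It passed the filter on low counts only through mutant libraries, and was at 0.95 without L4440 replicate 1. The neuron median ranged from -0.66 to 0.92 over the alternatives run. Cuticle collagens took 0.0728% and 0.0952% of reads on oma-1 RNAi, against 0.0576% and 0.0965% on L4440. Their 4 tested genes had a median of 0.03, which was -0.39 without L4440 replicate 1 and 0.63 without L4440 replicate 2. Genes of stress and immunity (4 tested) had a median of 0.03, from -0.23 to 0.16 over the alternatives.

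Beyond the called genes, the rule for named genes took the 8 genes in each direction with the lowest p and no overlap between foods, of which none was called. The lowest p among the higher ones was that of fbxa-215, an F-box gene, with 49 and 41 reads on oma-1 RNAi, against 4 and 15 on L4440. That was 174 and 162 CPM on oma-1 RNAi against 22.9 and 83.6 CPM on L4440, and the L4440 libraries differed more from each other than the oma-1 RNAi libraries did. The fold change was 1.64 on the log2 scale (SE 0.43), and its adjusted p by edgeR's quasi-likelihood test was 0.771. The nuclear hormone receptor gene nhr-3 had 77 and 76 reads on oma-1 RNAi against 11 and 32 on L4440, a log2 fold change of 1.24 (SE 0.38). The fatty acid binding protein gene lbp-1 had 28 and 54 reads on oma-1 RNAi against 5 and 15, and ife-1, of the eIF4E family of translation factors, 16 and 18 against 4 and 1. Both were without overlap, at 1.45 (SE 0.50) for lbp-1 and 2.13 (SE 0.71) for ife-1. Without L4440 replicate 1 the log2 fold change was 0.97 for fbxa-215, 0.65 for nhr-3, 0.86 for lbp-1 and 3.35 for ife-1. Without L4440 replicate 2 it was 2.88 for fbxa-215, 2.21 for nhr-3, 2.45 for lbp-1 and 1.49 for ife-1. L4440 replicate 1, the lowest library at fbxa-215, nhr-3 and lbp-1, then stands alone for its food. The other genes of this direction were fre-1, H20J04.6, F18A12.7 and rfp-1, which overlaps R05D3.8 on the opposite strand.

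In the lower direction the calmodulin gene cmd-1 led, with 22 and 14 reads on oma-1 RNAi, against 50 and 21 on L4440. These were 78.3 and 55.5 CPM on oma-1 RNAi against 287 and 117 CPM on L4440, with L4440 replicate 1 the highest. The fold change was -1.57 on the log2 scale (SE 0.40), and its adjusted p by edgeR's quasi-likelihood test was 0.593. The log2 fold change was -0.84 without L4440 replicate 1 and -2.05 without L4440 replicate 2. The cadherin gene cdh-5 had 1 and 1 reads on oma-1 RNAi, against 5 and 7 on L4440, a pooled ratio of L4440 over oma-1 RNAi of 9.01 with an exact 95% counting interval of 2.0 to 82.8. That interval leaves out spread between libraries and the choice of the gene by its low p. cdh-5 passed the filter on low counts only through mutant libraries. Y37E3.30 was the most abundant of the 8, with 449 and 551 reads on oma-1 RNAi, against 625 and 575 on L4440. Both oma-1 RNAi libraries, at 1599 and 2183 CPM, were below both L4440 libraries at 3582 and 3205 CPM, with a log2 fold change of -0.84 (SE 0.31). The others included T25G12.11 and T16A1.10, C34C12.4, which overlaps pph-6 on the opposite strand, and evl-18, which overlaps F34D10.9 on the same strand.

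The L4440 libraries did not share the extremes of the uncalled genes evenly. The 70 genes lower at an unadjusted p under 0.05 all had their highest level on L4440, as their selection makes likely, 54 in replicate 1 and 16 in replicate 2. In 22 of the 70, replicate 1 was more than 4-fold above replicate 2, against 63 of the 4565 tested genes other than oma-1 and moe-3. Of those 4565 genes, 1317 were highest in L4440 replicate 1 and 1089 in L4440 replicate 2. The 63 uncalled genes higher at an unadjusted p under 0.05 had their lowest level on L4440, as their selection also makes likely. For 42 that was replicate 1 and for 21 replicate 2, where 1373 and 1125 of the 4565 genes had their lowest level. The log2 fold change of pals-26 was -2.18 (SE 0.61) as reported, 0.60 without L4440 replicate 1 and -3.04 without L4440 replicate 2.

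**Figure D5:**
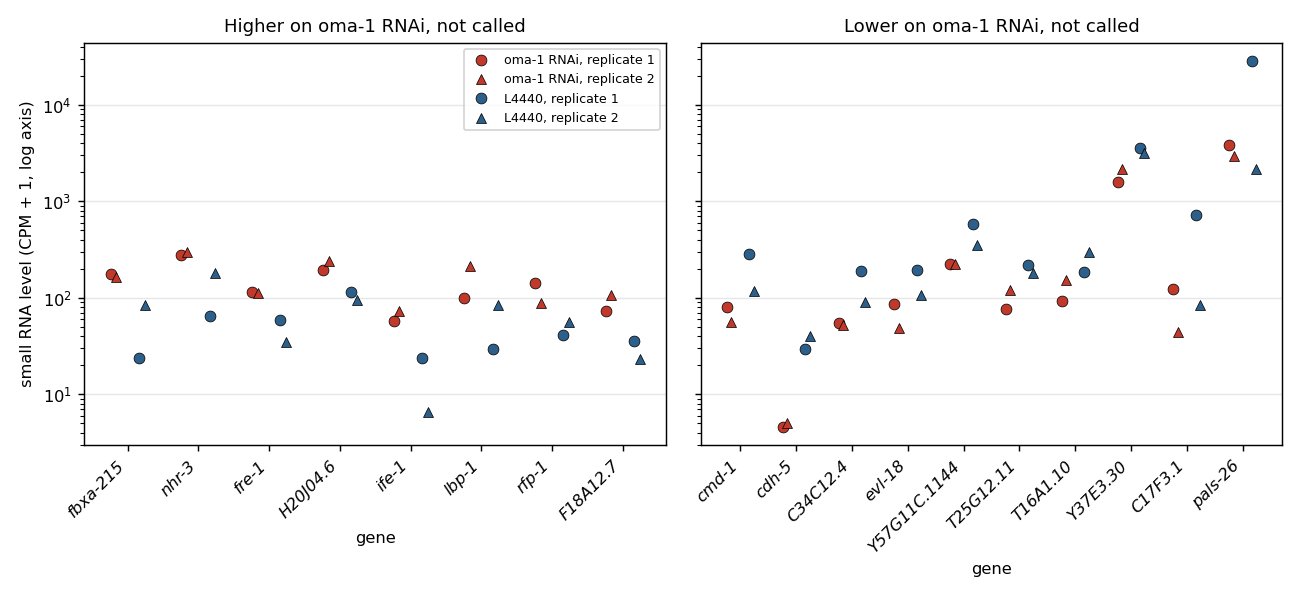
Small RNA level (CPM + 1, log axis) in each wild-type library for the 8 genes in each direction with the lowest unadjusted p and no overlap between foods, oma-1 RNAi to the left of L4440 for each gene. The panel of lower genes also shows C17F3.1 and pals-26, which were added after their values were seen and whose foods overlapped. None was called, and at several genes the L4440 libraries lie far apart, as at fbxa-215 with 22.9 and 83.6 CPM.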

How the data were processed

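Small RNA counts per gene were analysed for 20191 genes in 8 libraries. Per the submitters' processing notes, cutadapt 1.14, TopHat2 2.1.1 and featureCounts 1.6.0 were used with WBcel235, and the authors deposited raw read counts for each library. Not given in the sources used here are the strand setting, the treatment of reads with several matches and any length filter. Gene lengths are the deposited exonic lengths.

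Counts as deposited were fitted with edgeR 4.0.16 in R 4.3.3 (TMM scaling, filterByExpr with a minimum count of 10, quasi-likelihood test) with a mean for each of the 4 groups (8 libraries, 4 residual degrees of freedom). Benjamini-Hochberg adjustment ran over 4567 genes, with calls under 0.05. SE was taken from the log2 fold change and the F statistic, and is approximate for genes with few reads. DESeq2 1.42.0 was an alternative. Library totals ranged from 136908 to 340932 reads, so genes with few reads have wide errors. Names were matched to the Ensembl annotation of WBcel235, where 178 of 20191 genes had no match.

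Lists were described by counts and medians, and there was no test of a list. The members, the 21 lists and the alternatives were chosen with earlier results of these data known. Named genes were oma-1, oma-2, moe-3, every called gene, the 8 per direction with the lowest unadjusted p among genes without overlap between foods and a mean CPM of at least 10, 3 per list at most (the 2 lowest p and the most reads), the 5 genes with most reads and genes within 20 kb of oma-1 with a read. rrf-1, ego-1, drh-3, rde-11, csr-1, mex-5, bath-45, myo-3, vit-2, vit-5 and the ERGO-1 loci K02E2.6, Y37E11B.2, H09G03.1 and E01G4.5 were added after their values were seen, as were the genes given for L4440 replicate 1.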

Additional observations from a re-analysis of the deposited data

How the results depend on the processing

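oma-1 and moe-3 remained called under every alternative run, at log2 fold changes of 6.64 to 6.99 and 5.40 to 6.27 when each library was left out in turn. The count of called genes was 2 as reported, but 26 (5 higher, 21 lower) with no filter on low counts, 24 (5 higher, 19 lower) with the replicate block, and 2 to 75 without each library in turn, the 75 (17 higher, 58 lower) without L4440 replicate 2. Of the lower calls, 21 of 21 with no filter and 16 of 19 with the block had L4440 replicate 1 more than 2-fold above L4440 replicate 2. The count for the difference of responses was 0 as reported, 1 with no filter, 2 with the replicate block and 0 to 6 without each library in turn. The block rests on the number alone: deviations of same-numbered libraries correlated at 0.325 between the wild-type foods and at 0.149 to 0.243 between other groups, but only 2 numbers exist and no label ties them to a batch. The oma-1 difference of responses was 0.11 with the replicate block and -0.46 to 0.58 without each library in turn.

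Leaving out each library in turn reversed the log2 fold change of 11 of the 43 genes followed by name, all uncalled. The ranges were -0.73 to 0.66 at mex-5, -0.17 to 0.68 at sid-1, -0.25 to 0.80 at rde-11, -0.25 to 0.20 at csr-1, -0.59 to 0.056 at E01G4.5 and -0.26 to 0.53 at H09G03.1. They were -0.25 to 0.53 at bath-45, -3.63 to 0.48 at ssp-16, -3.04 to 0.60 at pals-26, -0.051 to 0.10 at hrde-1 and -0.13 to 0.73 at Y71A12B.10. The cause was not tested. A search for sequence shared with oma-1 was not run. At these depths a change within 2-fold could be bounded for 39.3% of tested genes.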

Other observations

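The genes F20D6.8 and tep-1, outside the comparisons, were picked after their values were seen. At F20D6.8 there were 50 reads in oma-1 RNAi replicate 1 and 0 in each of the other 3 wild-type libraries, and it overlaps F20D6.5 on the opposite strand. tep-1 had 10 and 17 reads on oma-1 RNAi, against 0 and 1 on L4440, a pooled ratio of 18.0 with an exact 95% counting interval of 2.97 to 737. It did not pass the filter on low counts and was not tested.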
